A study of Mus musculus with 6 samples.

Results

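The cytosolic ribosomal protein genes were examined in the lungs of 3 TNF-Tg and 3 WT mice by bulk RNA-sequencing. The genes were taken by symbol: Rpl or Rps followed by a number and an optional a, l or x, and Rplp0, Rplp1, Rplp2 and Rpsa, leaving out symbols that contain "-ps". The rule gave 82 genes of the 49568 symbols in the count table, and 80 of them were among the 19199 genes left for testing once edgeR had removed genes with few counts (SE below stands for the standard error). TNF-Tg mice carry a human TNF transgene and develop chronic erosive arthritis and pulmonary hypertension, and WT mice are their littermates without it. All mice were female, on a C57BL/6 background and 4 months old, and the sources name no other allele or treatment for them. RNA came from the whole organ, so fewer cells of a type and less RNA per cell cannot be told apart in any value below. The transgene itself was not analysed here.

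The cytosolic ribosome is built from a large (60S) and a small (40S) subunit, each a shell of proteins around ribosomal RNA. The proteins are made in near equal numbers, and their mRNAs are among the most abundant of any cell. These mRNAs begin with a run of pyrimidines, the 5′ terminal oligopyrimidine or TOP motif, through which growth signals such as mTOR control their translation. A few ribosomal proteins have paralogs used mainly in 1 tissue, such as Rpl3l in striated muscle and Rpl10l and Rpl39l in testis.

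The sequence around the annotated start is shown because the TOP motif would lie there. RefSeq starts (GRCm38.p6) were given for 60 of the 82 genes, and the 50 bases from 35 before to 15 after the start are printed 5′ to 3′ for 4 of the genes with the largest rises (Rpl12, Rpl35, Rpl39 and Rps25), for 3 that did not pass the test (Rpl14, Rpl28 and Rps15) and for Rpl3l, which was lower, with the longest C or T run near the start in capitals.
Rpl12 (chr2:32961677-32961726, plus strand): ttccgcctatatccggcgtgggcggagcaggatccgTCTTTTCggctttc
Rpl35 (chr2:39005117-39005166, minus strand): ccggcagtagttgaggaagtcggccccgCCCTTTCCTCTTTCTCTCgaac
Rpl39 (chrX:37085208-37085257, minus strand): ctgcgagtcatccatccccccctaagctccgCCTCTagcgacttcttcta
Rps25 (chr9:44407679-44407728, plus strand): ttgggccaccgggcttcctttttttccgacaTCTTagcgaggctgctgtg
Rpl14 (chr9:120571482-120571531, plus strand): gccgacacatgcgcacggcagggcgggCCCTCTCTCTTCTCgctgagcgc
Rpl28 (chr7:4792930-4792979, plus strand): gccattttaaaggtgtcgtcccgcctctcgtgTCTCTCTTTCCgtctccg
Rps15 (chr10:80292396-80292445, plus strand): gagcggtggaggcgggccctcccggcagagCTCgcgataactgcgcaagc
Rpl3l (chr17:24727791-24727840, plus strand): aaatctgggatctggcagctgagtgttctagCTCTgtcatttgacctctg
The run that covers the start, or begins within 5 bases of it, was at least 8 bases long in 23 of the 60 genes (38.3%), against 11.4% of 27025 genes of the same table, taking the longest run where a gene had several starts. Runs of at least 10 bases were found in 28.3% of the ribosomal protein genes and in 5.98% of all genes. Leaving out paralogs and retrocopies, the median log2 fold change was 0.67 for the 22 genes with a run of at least 8 bases and 0.63 for the other 34. Rpl35 and Rpl14, both with long runs, lay at opposite ends of the range. The letters CCGGAAG, searched on both strands of the 300 bases given for each start and chosen after sequences had been seen, stood in 41.7% of the 60 genes and in 9.93% of all genes. Of the other letters searched, TATAAA stood in 10% of the 60 genes and 15.7% of all genes, and CAAGATGG in 5% and 2.42%. These shares are a description only. Start sites were not measured in these lungs.

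Ribosomal protein genes took a larger part of the counted reads in each TNF-Tg lung than in any WT lung. The 82 genes held 4.61%, 5.19% and 4.31% of all counts in the 3 TNF-Tg lungs and 2.75%, 3.10% and 3.56% in the 3 WT lungs. Replicate 2 of TNF-Tg was the highest and replicate 1 of WT the lowest. The mean was 4.70% ± 0.44 (SD, n = 3) in TNF-Tg and 3.14% ± 0.40 (SD, n = 3) in WT lungs, a ratio of 1.5 (exact two-sided permutation test p = 0.1, the smallest that 3 lungs against 3 allow). One gene, Gm42418, took 5.22% of the reads of replicate 1 of TNF-Tg and at most 0.274% of those of any other lung, and without it the ribosomal protein share of that replicate was 4.87%. Mitochondrially encoded genes took 3.70%, 3.10% and 2.51% of counts in TNF-Tg and 4.12%, 5.59% and 3.81% in WT lungs, also without overlap. With those genes left out of the totals the ribosomal protein share was 4.86% ± 0.47 and 3.28% ± 0.41 (SD, n = 3 each). The 60S genes alone held 2.76% ± 0.26 of counts in TNF-Tg and 1.85% ± 0.23 in WT lungs (SD, n = 3 each), and the 40S genes held 1.95% ± 0.18 and 1.28% ± 0.17.

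**Figure D1:**
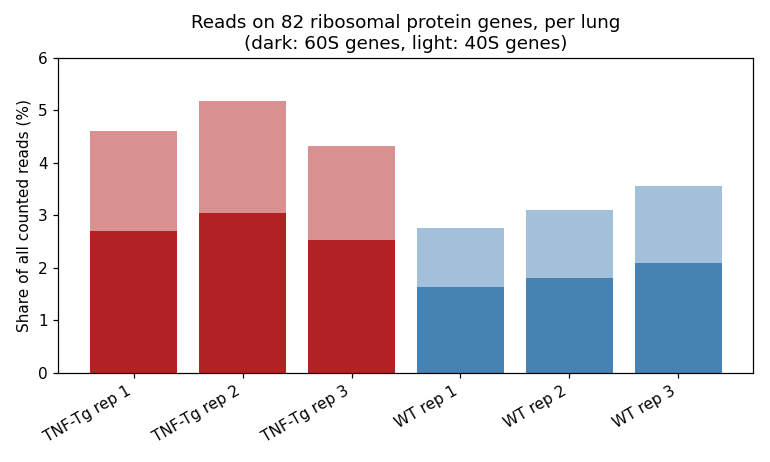
Share of all counted reads (%, vertical axis from 0) on the ribosomal protein genes in each of the 6 lungs, with 60S genes as the dark and 40S genes as the light part of a bar. The 3 TNF-Tg bars, from 4.31% to 5.19%, all stand above the 3 WT bars, from 2.75% to 3.56%.

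The balance between the subunits was much the same in all lungs. The counts of 60S genes were 1.41, 1.42 and 1.42 times those of 40S genes in the TNF-Tg lungs and 1.47, 1.41 and 1.44 times in the WT lungs. The ranges overlapped, and the mean log2 ratio was 0.03 lower in TNF-Tg lungs (0.50 ± 0.01 against 0.53 ± 0.03, SD, n = 3 each, exact two-sided permutation test p = 0.3).

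Gene by gene, 70 of the 80 tested genes rose and 2 fell in TNF-Tg lungs at an adjusted p of 0.05 (edgeR's quasi-likelihood test, Benjamini-Hochberg over all 19199 genes). Calls were common in these lungs: 47.4% of all tested genes passed in either direction and 24.0% passed as higher, against 90% and 87.5% of the ribosomal protein genes. The median log2 fold change of the 80 genes was 0.63 (quartiles 0.51 and 0.77), against 0.03 over all genes tested. Normalized counts of the groups did not overlap for 67 of the 80 genes (83.8%), against 58.7% of all genes. Leaving out 6 paralogs and retrocopies (Rpl3l, Rpl10l, Rpl39l, Rps4l, Rps27l and Rpl6l), all of the remaining 76 genes had a positive log2 fold change, between 0.25 and 1.11, and 68 of them were called.

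The number called depended on single lungs while the direction did not. Without replicate 1 of TNF-Tg 34 genes were called, without its replicate 2 there were 40, and without replicate 1 of WT there were 38. The share of all genes called was then 37.3%, 37.6% and 37.8%, and that of ribosomal protein genes 42.5%, 50% and 47.5%. In each of these fits 78 of the 80 genes had a positive log2 fold change, and the median was 0.53, 0.53 and 0.51. Of the genes described singly below, Rplp0, Rplp1, Rpsa, Rpl3, Rpl4, Rps6, Rps19, Rps21 and Rpl24 lost their call in 4 of the 6 fits with a lung left out (without replicate 1 or 2 of TNF-Tg, or replicate 1 or 2 of WT). Rpl10 lost it in 4 as well (without replicate 1 or 2 of TNF-Tg, or replicate 1 or 3 of WT), and Rpl22 without replicate 1 of either genotype. The 6 genes with the largest rises (Rpl12, Rpl35, Rpl17, Rpl39, Rps25 and Rpl32) were called in all 6 of these fits.

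**Figure D2:**
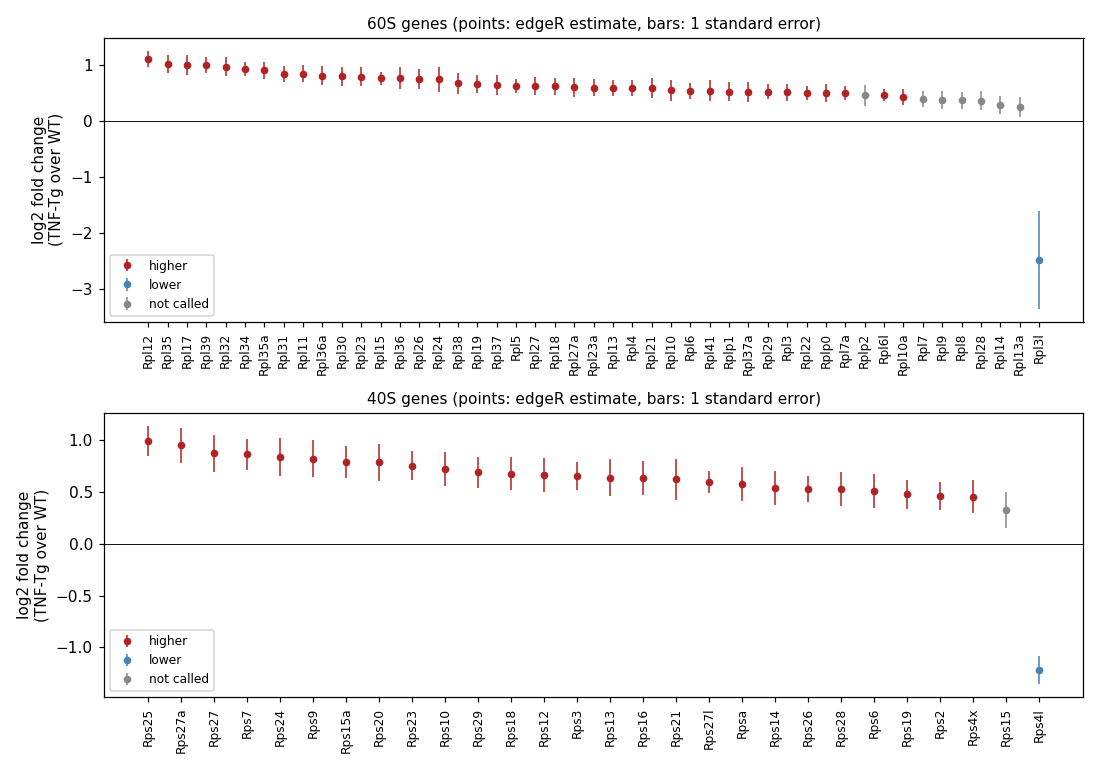
Log2 fold change of TNF-Tg over WT lungs (vertical axis) with 1 standard error for tested genes (some are not shown), 60S genes above and 40S genes below, sorted by size and coloured by call. Apart from Rpl3l at -2.48 and Rps4l at -1.22, every gene shown lies above 0, from 0.25 for Rpl13a to 1.11 for Rpl12.

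Of the 48 tested genes of the 60S subunit 40 were higher, 1 was lower and 7 were not called, with a median log2 fold change of 0.60. Rpl12, a protein at the base of the stalk where elongation factors bind, rose most. The gene had 15514, 17470 and 12555 normalized counts in the TNF-Tg lungs and 6427, 7132 and 7476 in the WT lungs. Even the lowest TNF-Tg lung was well above the highest WT lung, and the fold change was 2.16 (log2 1.11 ± 0.15 SE, adjusted p = 0.000522).

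Rpl35 and Rpl17 sit around the exit of the tunnel through which the new chain leaves, and Rpl39 lines that tunnel. Rpl35 had 14511, 15114 and 11107 normalized counts in TNF-Tg and 5862, 6546 and 7733 in WT lungs (log2 fold change 1.02 ± 0.16 SE, adjusted p = 0.00129). Rpl17 had 25096, 26690 and 18218 against 10101, 11834 and 12925 (1.01 ± 0.17 SE, adjusted p = 0.00205). Rpl39 had 7538, 8033 and 5759 against 3126, 3882 and 3636 (1.00 ± 0.15 SE, adjusted p = 0.00102). In all of these genes replicate 3 was the lowest TNF-Tg lung and replicate 1 the lowest WT lung. Rpl32, a protein of the 60S body, repeated that order with 20431, 22314 and 14936 against 8398, 10427 and 10533 normalized counts (0.97 ± 0.17 SE, adjusted p = 0.00248).

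Among the genes that took the most reads, rises were smaller and closer to the spread between lungs. Read counts were not scaled to gene length here, so they give no order of mRNA levels between genes. Rplp0, the protein that anchors the stalk, had 48191, 49480 and 37036 normalized counts in TNF-Tg and 28646, 33022 and 33197 in WT lungs (log2 fold change 0.51 ± 0.16 SE, adjusted p = 0.0293). Rpl10, which joins the 60S subunit last and completes it for translation, had 41888, 42608 and 29746 against 22288, 30272 and 25226 (0.55 ± 0.19 SE, adjusted p = 0.0390). Replicate 3 of TNF-Tg lay below replicate 2 of WT for Rpl10, so its groups overlapped although the gene was called. Rpl4, which reaches into the exit tunnel, had 36306, 36915 and 27850 against 21116, 21689 and 24200 (0.59 ± 0.15 SE, adjusted p = 0.0126), and its groups did not overlap.

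Rplp1 and Rplp2 encode the acidic proteins that pair on Rplp0 to form the stalk. Rplp1 had 30754, 31922 and 24130 normalized counts in TNF-Tg and 17673, 18155 and 24368 in WT lungs, with an overlap of 1 lung from each group (log2 fold change 0.53 ± 0.18 SE, adjusted p = 0.0372). Rplp2 had 15732, 18307 and 12221 against 9012, 11437 and 13042 and was not called (0.47 ± 0.19 SE, adjusted p = 0.0730). The difference between the genes of the pair was not tested, and their estimates lay within 1 standard error of each other.

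The other genes of the 60S subunit called higher included Rpl34, Rpl35a, Rpl31, Rpl11, Rpl36a, Rpl30, Rpl23, Rpl15, Rpl36, Rpl26, Rpl24, Rpl38, Rpl19, Rpl37, Rpl5, Rpl27, Rpl18, Rpl27a, Rpl23a, Rpl13, Rpl21, Rpl6, Rpl41, Rpl37a, Rpl29, Rpl3, Rpl22, Rpl7a, Rpl6l and Rpl10a, with log2 fold changes from 0.43 for Rpl10a to 0.93 for Rpl34. Rpl5 and Rpl11, which form a complex with 5S ribosomal RNA and bind Mdm2 when ribosome assembly fails, had values of 0.63 (SE 0.13) and 0.85 (SE 0.15). The genes not called were Rpl7 (0.40), Rpl9 (0.38), Rpl8 (0.37), Rpl28 (0.37), Rpl14 (0.29), Rpl13a (0.25) and Rplp2. Rpl7, Rpl9, Rpl8 and Rplp2 had unadjusted p under 0.05, and the normalized counts of Rpl7 did not overlap between groups.

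Of the 32 tested genes of the 40S subunit 30 were higher, 1 was lower and only Rps15 (0.32 ± 0.17 SE, adjusted p = 0.159) was not called. Rps25, a protein of the head of the subunit that some viral internal ribosome entry sites need, rose most. It had 13983, 15803 and 11112 normalized counts in TNF-Tg and 6415, 7111 and 7044 in WT lungs (log2 fold change 0.99 ± 0.15 SE, adjusted p = 0.000941). Its WT lungs lay close together and far below each TNF-Tg lung.

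Rpsa, which is also known as the laminin receptor, had 42269, 41805 and 32263 normalized counts in TNF-Tg and 22301, 26527 and 28955 in WT lungs (0.58 ± 0.16 SE, adjusted p = 0.0199). Rps21, which lies beside Rpsa on the subunit, was the protein-coding 40S gene with the widest spread in a genotype. It had normalized counts of 10133, 10278 and 6714 in TNF-Tg and 4714, 6436 and 6471 in WT lungs (0.62 ± 0.20 SE, adjusted p = 0.0301), and replicate 3 of TNF-Tg lay only just above the WT lungs.

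The other 40S genes called higher included Rps27a, Rps27, Rps7, Rps24, Rps9, Rps15a, Rps20, Rps23, Rps10, Rps29, Rps18, Rps12, Rps3, Rps13, Rps16, Rps27l, Rps14, Rps26, Rps28, Rps6, Rps19, Rps2 and Rps4x, from 0.46 for Rps4x to 0.95 for Rps27a, which is made as a fusion with ubiquitin. Rps6, the substrate of the S6 kinases, had a log2 fold change of 0.51 (± 0.16 SE, adjusted p = 0.0333), and Rps19, the gene most often mutated in Diamond-Blackfan anemia, had 0.48 (± 0.14 SE, adjusted p = 0.0220).

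The paralogs and retrocopies held the 2 genes that were lower. Rps4l, a copy of Rps4x on chromosome 6 (148354656 to 148355598, plus strand, GRCm38) that GENCODE M21 lists as a transcribed processed pseudogene, had 262, 317 and 245 normalized counts in TNF-Tg and 637, 688 and 594 in WT lungs. Each WT lung had more than each TNF-Tg lung, and the log2 fold change was -1.22 (± 0.14 SE, adjusted p = 0.000254). Its parent Rps4x had 38967, 39206 and 29667 in TNF-Tg and 23252, 29266 and 26127 in WT lungs and a log2 fold change of 0.46 (± 0.16 SE, adjusted p = 0.0465). The call of Rps4x was lost under 8 of the 16 alternatives, among them DESeq2's size factors, no filter on low counts and 5 of the 6 fits with a lung left out (all but the fit without replicate 3 of TNF-Tg), and its estimate stayed between 0.35 and 0.56. For every 1000 reads of Rps4x there were 6.73, 8.10 and 8.27 reads of Rps4l in TNF-Tg lungs and 27.4, 23.5 and 22.7 in WT lungs. The mean log2 ratio differed by -1.67 (exact two-sided permutation test p = 0.1, the smallest possible, and 0.2 after Benjamini-Hochberg adjustment over the 4 pairs tested). Of the 100-base windows of Rps4l, 1.66% also occur at another annotated gene.

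Rpl3l, which takes the place of Rpl3 in the ribosomes of striated muscle, had 5, 11 and 22 counts in the TNF-Tg lungs and 184, 19 and 35 in the WT lungs. A single WT lung held most of its reads, and replicate 3 of TNF-Tg overlapped replicate 2 of WT. The log2 fold change was -2.48 (± 0.87 SE, adjusted p = 0.0461), and without replicate 1 of WT it was -0.92 and no longer called. That lung also held 2084 summed CPM (counts scaled to a common library total) of 9 skeletal muscle genes, against 16.5 to 52.4 in the other 5 lungs. Summed CPM of 9 cardiac muscle genes were 1160 to 1581 in the WT lungs and 324 to 399 in the TNF-Tg lungs, and the part of either tissue in the Rpl3l counts was not tested. Rpl3 itself had 32758, 36158 and 26588 normalized counts in TNF-Tg and 19582, 23062 and 24213 in WT lungs (0.51 ± 0.16 SE, adjusted p = 0.0271).

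The testis-enriched paralogs were near or at the limit of detection and were not tested. Rpl10l, an intronless copy of Rpl10, had between 0 and 3 counts in every lung, and 3 counts, taken as the least detectable, correspond to 0.0922 to 0.118 CPM at these depths. Rpl39l had 8, 19 and 4 counts in TNF-Tg and 3, 3 and 7 in WT lungs, against at least 3271 counts of Rpl39 in each lung.

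Rps27l, a paralog of Rps27 known as a p53 target, rose with its parent. It had 1057, 965 and 904 normalized counts in TNF-Tg and 623, 687 and 627 in WT lungs (log2 fold change 0.59 ± 0.10 SE, adjusted p = 0.00224), and these lungs lay closer together than those of most ribosomal protein genes. Rps27 had 21731, 22921 and 15919 against 9241, 11730 and 12129 (0.87 ± 0.17 SE, adjusted p = 0.00436). The log2 ratio of Rps27l to Rps27 differed by -0.27 (exact two-sided permutation test p = 0.2, adjusted 0.267).

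The remaining pairs involve paralogs that the symbol rule leaves out. Rpl22l1, a paralog of the RNA-binding protein Rpl22, had 1044, 1101 and 679 normalized counts in TNF-Tg and 407, 403 and 423 in WT lungs (1.20 ± 0.18 SE, adjusted p = 0.00110). Rpl22 had 7000, 6764 and 5536 against 4101, 4515 and 4969 (0.51 ± 0.13 SE, adjusted p = 0.0120). Reads of Rpl22l1 per 1000 of Rpl22 were 149, 163 and 123 in TNF-Tg and 99.3, 89.2 and 85.1 in WT lungs, a log2 difference of 0.66 (exact p = 0.1, adjusted 0.2). Rpl36al, a retained copy of Rpl36a, had 5029, 5287 and 4026 against 2395, 2718 and 3051 (0.81 ± 0.14 SE, adjusted p = 0.00189), and Rpl36a had 7603, 8171 and 6351 against 3742, 3597 and 5243 (0.81 ± 0.17 SE, adjusted p = 0.00520). Their log2 ratio differed by -0.02 (exact p = 0.9).

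**Figure D3:**
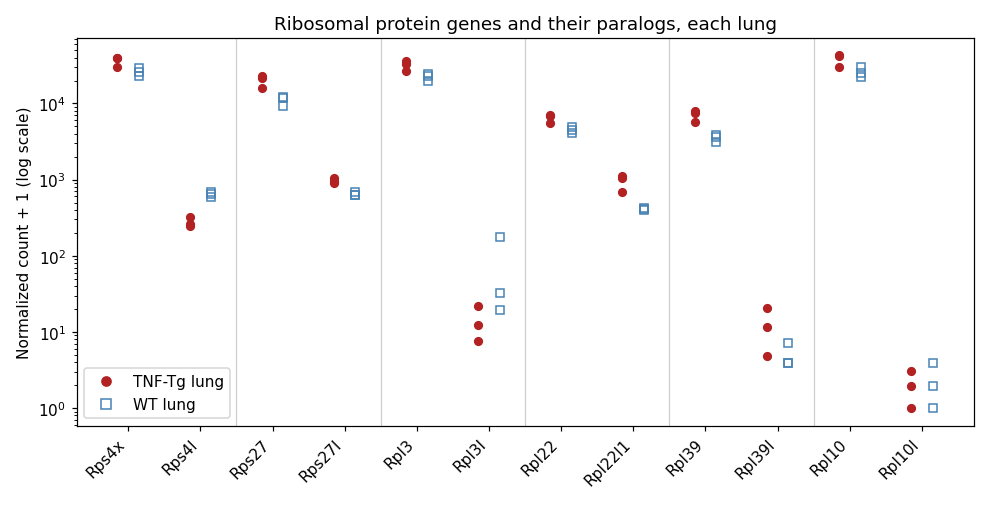
Normalized count plus 1 (log scale, vertical axis) of 6 ribosomal protein genes and their paralogs in each lung, with filled circles for TNF-Tg and open squares for WT lungs. Rps4l is the pair member whose WT points all lie above its TNF-Tg points while its parent shows the opposite order, and the high Rpl3l point is replicate 1 of WT.

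Within a genotype the genes moved together from lung to lung. After each gene's log2 CPM was set against its genotype mean, the median deviation of the 76 genes without paralogs and retrocopies was 0.11, 0.17 and -0.28 in replicates 1, 2 and 3 of TNF-Tg and -0.18, 0.04 and 0.14 in those of WT. In replicate 3 of TNF-Tg 75 of the 76 genes lay below their genotype mean, and in replicate 1 of WT all 76 did. The scaling of the libraries sets such a shift over all genes close to 0 in each lung, so all genes give no contrast here. The part of the sum of squared deviations that the genes of a lung shared was 85.0% for these 76 genes. Because the genes share lungs in this way, they are not 76 independent measurements of the difference between genotypes.

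Single genes followed the order of the lungs. Replicate 2 of TNF-Tg had the highest log2 CPM of the 6 lungs for 65 of the 80 tested genes, and replicate 1 of WT the lowest for 73. Replicate 1 of TNF-Tg was the highest for 13. The median SD of log2 CPM was 0.24 within TNF-Tg and 0.18 within WT lungs for ribosomal protein genes, and 0.18 and 0.19 for all genes. Among tested genes the widest spread in a genotype was that of Rpl3l (SD 1.64 in WT), Rpl24 (0.38 in TNF-Tg) and Rps21 (0.35 in TNF-Tg). Rpl24 had 280, 371 and 219 normalized counts in TNF-Tg and 151, 168 and 199 in WT lungs (0.75 ± 0.22 SE, adjusted p = 0.0231). In the annotation 47% of its exon bases overlap Gm28037 on the same strand, and for Rpl13a, with 346 to 504 counts per lung, 35.4% overlap other genes on the same strand. How reads on such shared bases were counted is not given in the sources used here.

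**Figure D4:**
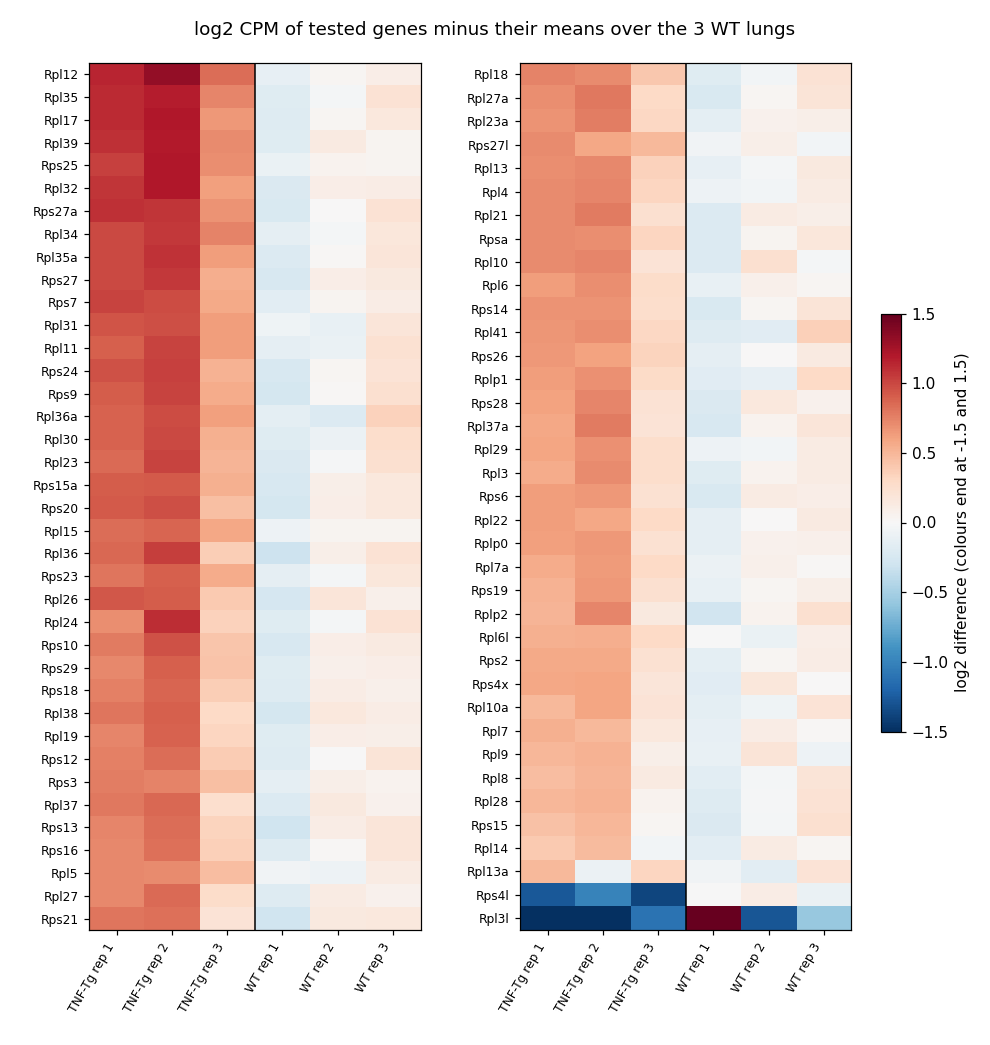
Log2 CPM of tested genes (some are not shown) minus their means over the 3 WT lungs (colour), with lungs as columns and genes as rows sorted by log2 fold change. Replicate 3 of TNF-Tg is paler than the other TNF-Tg lungs in nearly every row, replicate 1 of WT is the bluest WT column, and Rps4l and Rpl3l stand apart at the bottom.

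Many of these genes have processed pseudogenes or copies with which reads can be exchanged. The table held 274 rows of ribosomal protein pseudogenes named after 59 of the genes, and these rows held 28.3, 28.3 and 28.8 counts per 100 counts of the ribosomal protein genes in TNF-Tg and 28.7, 28.3 and 27.9 in WT lungs. Adding them to their parents left the share of counts 1.5 times higher in TNF-Tg lungs. Of 16 tested genes with under 10% of shared windows and of same-strand exon overlap, 12 were higher and 2, Rpl3l and Rps4l, were lower, with a median log2 fold change of 0.59. Leaving out these and Rps27l as paralogs and retrocopies, 11 of 13 were higher, with a median of 0.62. Ribosomal protein mRNAs are short, and of 1103 other genes with a coding transcript under 1000 bases 31.0% were higher, with a median of 0.16. Of the 171 of those with a mean log2 CPM of 6 or more, 43.3% were higher, with a median of 0.22.

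Of 10 genes named for ribosomal proteins or their paralogs that the rule does not cover, 8 were higher and none was lower. The share called was 80%, against 47.4% of all tested genes, and the median log2 fold change was 0.60. Beside Rpl22l1 the largest rise was that of Rps27rt, 89.5% of whose windows also occur at another gene (0.96 ± 0.16 SE, adjusted p = 0.00170). Fau, which encodes a ubiquitin-like protein fused to a 40S protein, was also higher (0.91), as were Rack1 (0.57), Rpl36al, Rps3a1, Rps12l1 and Rpl37rt. The list also held Rpl7l1, which did not pass (0.08, adjusted p = 0.468). Rps12l1 and Rpl37rt are annotated as processed pseudogenes, and all windows of Rps12l1 (100%) and 24.5% of those of Rpl37rt also occur at another gene. Rps3a1, Rps12l1 and Rpl37rt were added to the list after the symbols of the table were seen.

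A list of 9 other mRNAs known to carry a TOP motif showed a similar median. Elongation and initiation factors were kept in the separate lists below, whether or not their mRNAs carry the motif. Of the 9 genes, 7 were higher and none was lower (77.8% called, against 47.4% of all tested genes). Their median log2 fold change was 0.53. Vim, the intermediate filament protein vimentin, had 45357, 49652 and 42636 normalized counts in TNF-Tg and 22930, 26694 and 25870 in WT lungs (0.87 ± 0.13 SE, adjusted p = 0.00122). Npm1, the nucleolar chaperone, had a value of 0.86 (± 0.12 SE, adjusted p = 0.000809). Pabpc1, Tpt1, Gas5, Btf3 and Naca were higher too, and Hnrnpa1 (0.13) and Nap1l1 (-0.02) were not called.

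In the other lists of translation genes the share called lay near or under the 47.4% of all tested genes, at 40% of elongation and termination factors, 41.2% of initiation factors and 34.2% of genes of ribosome biogenesis. Of 10 elongation and termination factors 3 were higher and 1 was lower, with a median of 0.27. Eef1b2, the nucleotide exchange factor of Eef1a1, was higher (0.78 ± 0.14 SE, adjusted p = 0.00232), as was Eif5a (0.44 ± 0.12 SE, adjusted p = 0.0161). Eef2, which moves the ribosome along the mRNA, had a value of 0.10 (adjusted p = 0.673). Of 34 initiation factors 11 were higher and 3 were lower, with a median of 0.15, led by the eIF3 subunit Eif3e (1.04 ± 0.13 SE, adjusted p = 0.000495) and the eIF2 subunit Eif2s2 (0.92 ± 0.11 SE, adjusted p = 0.000392). Of 38 genes of ribosome biogenesis 12 were higher and 1 was lower, with a median of 0.19, led by Gnl3 (0.78 ± 0.11 SE, adjusted p = 0.000952) and Dkc1 (0.71 ± 0.22 SE, adjusted p = 0.0265).

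Of 16 genes of growth signalling to the ribosome 4 were higher and 4 were lower (50%, against 47.4% of all genes), with a median of -0.06. Tsc2, which restrains mTOR, had 3037, 3065 and 2970 normalized counts in TNF-Tg and 6377, 6690 and 6231 in WT lungs (-1.09 ± 0.09 SE, adjusted p = 5.0e-05). Myc, a transcription factor that drives ribosome production, had 410, 388 and 469 against 221, 181 and 205 (1.06 ± 0.14 SE, adjusted p = 0.000629). For both genes the groups lay far apart compared with the spread between lungs. The translation repressor Eif4ebp2, Mtor and Sesn2 were lower (-0.94, -0.38 and -0.42), and Sesn1, Rps6kb1 and Rheb were higher (0.62, 0.49 and 0.36).

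**Figure D5:**
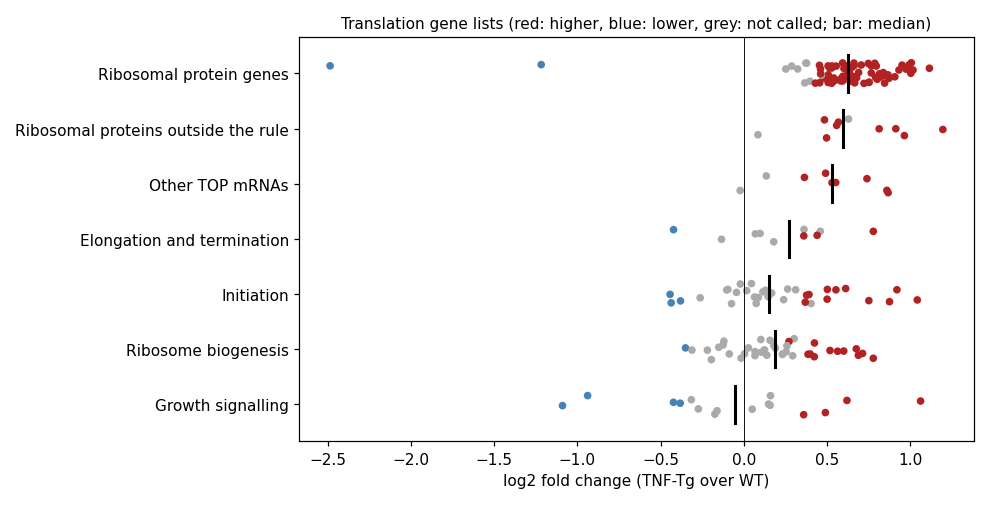
Log2 fold change of TNF-Tg over WT lungs (horizontal axis) for each gene of the ribosomal protein set and of 6 lists of translation genes, with a black bar at each median. Medians fall from 0.63 for ribosomal protein genes and 0.60 and 0.53 for the next lists to 0.27, 0.15 and 0.19, and to -0.06 for growth signalling.

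Marker genes of several cell types also differed between the genotypes. Over all tested genes 24.0% were called higher and 23.4% lower. Of 12 lymphocyte genes 9 were higher (led by Cd4, 4.84, and Ptprc, 1.43) with summed CPM of 813 to 960 in TNF-Tg and 227 to 354 in WT lungs. All 10 macrophage genes (led by Marco, 7.10, and C1qc, 4.29) and 8 of 9 proliferation genes (led by Mki67, 1.61, and Birc5, 1.30) were higher, with summed CPM of 12657 to 14276 against 3006 to 3107 and of 197 to 269 against 108 to 128. All 8 endothelial genes (led by Ramp2, -2.49, and Tek, -1.94), 6 of 10 alveolar epithelial genes (Aqp5, -1.88, and Rtkn2, -1.81), 5 of 7 fibroblast genes (Tcf21, -2.13, and Col3a1, -1.74) and 6 of 7 erythroid genes (Hba-a2, -2.19, and Hba-a1, -2.16) were lower. All 9 cardiac muscle genes were lower (Myl3, -3.67, and Nppa, -2.55). Myl3 had 2220 counts in replicate 1 of WT and 224 and 153 in the other WT lungs. Of 7 tested skeletal muscle genes 3 (Myh4, -6.38, and Tnnt3, -4.69) and of 4 tested squamous epithelium genes 3 (Krt5, -6.54, and Calml3, -3.29) were lower. In both lists replicate 1 of WT stood apart from all other lungs. The skeletal list held 2084 summed CPM in that lung and 16.5 to 52.4 elsewhere, and the squamous list 3518 against 9.98 to 31.0. Myh4 had 4107 counts in that lung and 6 to 20 in the others, so its groups overlapped. The summed CPM were 1633 to 1859 against 3475 to 3957 for endothelium, 16344 to 21077 against 24483 to 29546 for alveolar epithelium, 966 to 1025 against 1533 to 2478 for fibroblasts and 8156 to 11967 against 33500 to 61023 for erythroid genes. The part of these cell types in the ribosomal protein result was not tested.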

How the data were processed

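Whole lungs of 3 TNF-Tg and 3 WT mice were sequenced as stranded poly(A) libraries. Per the labels the reads were cleaned with Trimmomatic (0.36) and mapped with STAR (2.5.2b) to GRCm38.p5, and featureCounts (version not given) made the deposited table of raw counts per gene symbol. The strand setting and annotation of the counting are not given in the sources used here. Groups came from the sample labels. Totals were 25396923 to 32529408 counts per lung, which put 3 counts at 0.0922 to 0.118 CPM.

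Counts were tested with edgeR (4.0.16, R 4.3.3) after its low-count filter (filterByExpr) and TMM scaling, using the quasi-likelihood test on genotype alone, and p-values were adjusted by Benjamini-Hochberg over all tested genes (threshold 0.05). The standard error is the log2 fold change divided by the square root of F. Log2 CPM used a prior count of 2. A normalized count is the count divided by the TMM-scaled total, times the mean of that total. Values per lung were compared with exact two-sided permutation tests. Paralog ratios needed 10 counts of both genes in every lung. Shared sequence is the percent of 100-base windows of a gene's GENCODE M21 transcripts found at another gene. Alternatives were DESeq2 (1.42.0), limma-voom (limma 3.58.1), other scalings and filters, the replicate block, pseudogene rows added and each lung left out. The edgeR, DESeq2 and limma-voom fits were tested on simulated data.

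The genes and lists were chosen with earlier results of these data known. Values per lung are given for the 6 largest rises and falls among called genes whose groups did not overlap, the 6 genes with the most reads, Rplp0, Rplp1, Rplp2, Rpsa, the paralog pairs and the 3 tested genes with the widest spread. For each list the 2 largest called changes are given, most as fold changes only. Values of some single genes are not reported here. The identity of the paralog proteins was not analysed here. The mice are separate animals, per the labels.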

Additional observations from a re-analysis of the deposited data

How the results depend on the processing

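Of 80 tested ribosomal protein genes 72 were called, and between 68 and 76 were called by DESeq2, limma-voom, other scalings, other filters and with pseudogene rows added. An absolute log2 fold change of at least 0.5 left 66. With each lung left out, between 34 and 77 were called, the median log2 fold change ran from 0.51 to 0.73, and 78 genes were positive in every fit. With the replicate number as a block 53 were called. Deviations of same-numbered lungs from their genotype means had correlations of -0.15, -0.00 and -0.24. With means of only 3 lungs, these values cannot tell whether the numbers pair the lungs. The log2 ratio of Rpl36al to Rpl36a changed sign with lungs left out, from -0.10 to 0.085 (the latter without replicate 2 of WT). For Rpl3l the call was lost under limma-voom, the block and 4 of the 6 fits with a lung left out, with values from -3.02 to -0.92 with a lung left out, and a minimum of 10 counts in every lung left the gene untested. Rpl41, Rpl10a and Rps4x were among the genes that lost their call under DESeq2's size factors. Each of these genes lost it under 8 of 16 alternatives. Exact tests of 3 lungs against 3 cannot pass 0.05, so they say nothing of stability.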
